A study of Mus musculus with 6 samples.

Results

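The genes described here encode the scaffold of the basement membrane: the collagen IV chains Col4a1 and Col4a2, the laminin chains Lama1, Lama5, Lamb1 and Lamc1, the nidogens Nid1 and Nid2, the proteoglycan perlecan (Hspg2) and the collagen-binding glycoprotein Sparc. They were taken by name from the deposited expression table, and all 10 were present among its 10989 genes. The cells were MPI-II, a line of mouse embryonic stem cells, at passages 13 to 18, and their RNA was sequenced. The 4 Ddx5 knockout (KO) libraries are numbered as lines, and each KO line was grown from a single clone after a Cas9 nickase with paired guides had been directed to exon 2 of Ddx5, which encodes an RNA helicase. The 2 wild-type (WT) libraries, numbered as replicates, are from MPI-II cells with Ddx5 intact. Both groups shared their conditions: feeder cells, serum and leukemia inhibitory factor, with PD0325901 to inhibit MEK and a second compound to inhibit GSK3. The labels do not state separate cultures for the WT replicates, so p-values measure only the spread between these libraries, which may be technical.

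A basement membrane is a thin sheet of extracellular matrix. Laminins, trimers of an alpha, a beta and a gamma chain, bind integrins and dystroglycan on the cell surface and polymerize into a first network. Collagen IV forms a second network that cross-links itself, and nidogens and heparan sulfate proteoglycans such as perlecan and agrin tie both together. In the early mouse embryo such sheets underlie the epiblast and the primitive endoderm, and stem cells in culture make several of the components themselves.

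Values are normalized expression scores in the authors' deposited units, without a depth that could be recovered. Library totals, 14612799 to 14722877 units, are set by the normalization. Ddx5 lay at 5854, 8450, 12793 and 5659 units in KO lines 1 to 4, against 36433 and 36436 units in the WT libraries (log2 fold change -2.23, limma adjusted p = 0.00807). Among the highest genes the deposited values come in blocks of 10, so the near-equal WT values of Ddx5 do not measure agreement between the replicates. In WT replicate 2, 131 genes were listed at 0, and in each other library 13 to 19 were. Chromosome 8 as a whole was uneven: the median of 601 of its genes, as log2 difference from each gene's mean over the libraries, was -0.32 in KO line 1, 0.22, 0.20 and 0.16 in KO lines 2 to 4, -0.34 in WT replicate 1 and 0.07 in WT replicate 2. Pluripotent stem cell markers were abundant in every library, with Pou5f1 at 13545 to 17548 units in the KO lines and at 17548 and 14346 units in the WT libraries. Of 17 such markers 1 rose (Nanog, log2 0.89) and 2 fell (Lin28a and Klf4, -1.62 and -0.94). This share of called genes was close to the 17.1% of all genes. Nanog is on chromosome 6, whose median over 518 genes was 0.42 in KO line 4 and -0.16 to -0.04 in the other libraries. Without KO line 3 no pluripotent marker was called higher. Of 20 listed markers of parietal and primitive endoderm, a cell type that lays down collagen IV and laminin, 17 (Gata4, Gata6, Sox17 and Sox7 among them) were not analysed here, and none of the 3 measured (Dab2, Krt19, Lrp2) passed the test. Their summed level was nevertheless higher in every KO line, at 435, 510, 516 and 783 units, against 217 and 364 units in the WT libraries. Lrp2 had the highest level of the 3 in every library and so made the largest part of this sum. Krt19 and Lrp2 lay above both WT libraries in all KO lines (log2 2.06 and 0.96, adjusted p = 0.0544 and 0.0843). Dab2 overlapped between the groups (log2 0.14, adjusted p = 0.728). It had 80, 104, 98 and 144 units in KO lines 1 to 4, against 99 and 88 units in the WT libraries. In this list 1 gene was called higher with chromosome-centred values, with a pseudocount of 0.1 or without KO line 1. The part of such cells in the members' levels was not tested.

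The basement membrane genes did not move as a block when Ddx5 was lost. Of the 10, Lama5 and Nid2 rose, Sparc fell and 7 did not pass the test (limma, Benjamini-Hochberg adjusted p below 0.05 over all 10989 genes). The background was 17.1% of all genes called, 9.75% of them higher and 7.34% lower, and a share of 3 in 10 members is read against that background. No member differed by 1 or more on the log2 scale. The median log2 fold change of the 10 was -0.07, against 0.04 for all genes. The KO lines lay above both WT libraries in 3 of the 10 (24.1% of all genes) and below both in 1 (19.6% of all genes), so that 4 of 10 did not overlap, where 43.7% of all genes did so. A bulk measurement cannot tell fewer cells of a type from less RNA per cell.

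**Figure D1:**
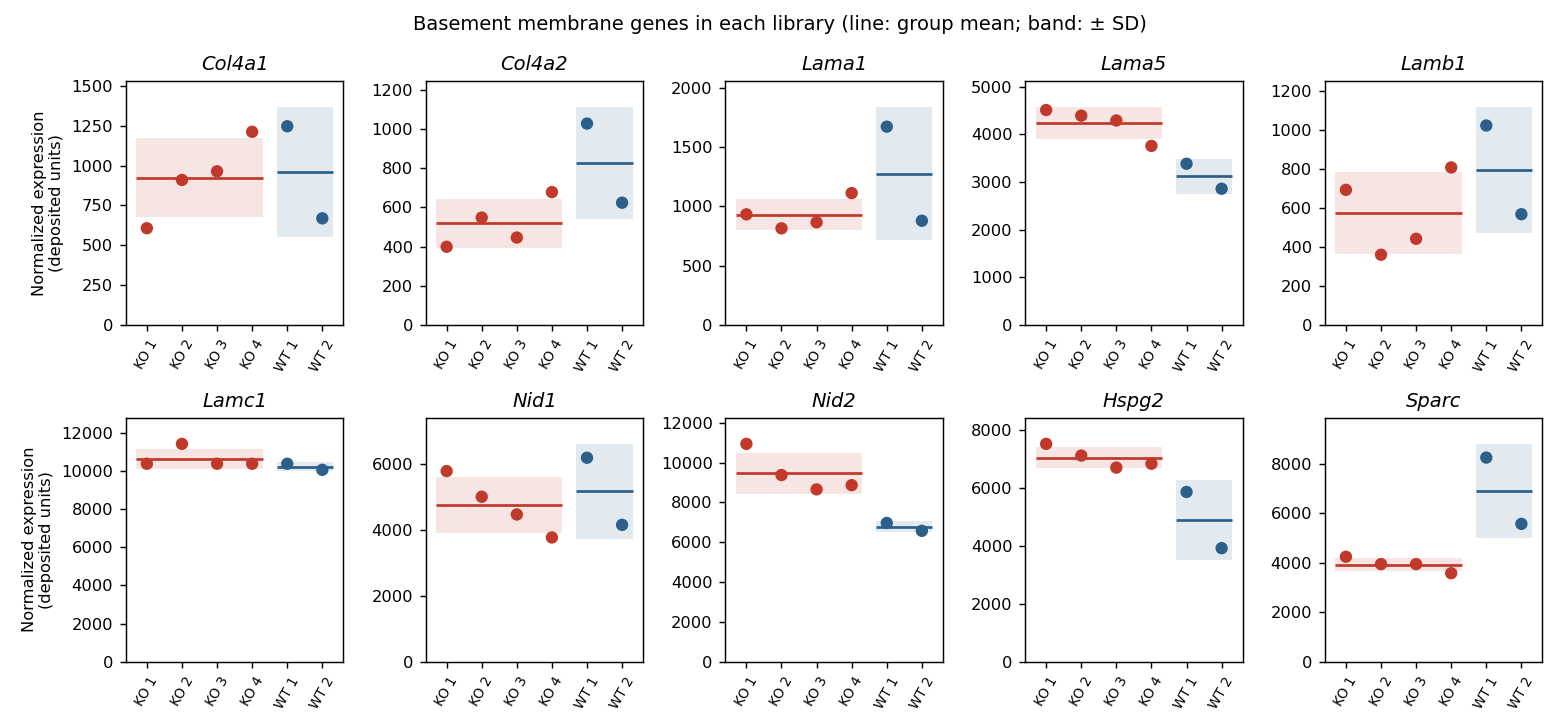
Deposited expression units (vertical axis, from 0) of each of the 10 basement membrane genes in KO lines 1 to 4 (red) and WT replicates 1 and 2 (blue); lines are group means and bands ± SD. The KO lines lie above both WT libraries for Lama5, Nid2 and Hspg2 and below both for Sparc, and the groups overlap in the other 6 panels.

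Collagen IV is the protein that sets a basement membrane apart from other matrix, and its main form is a trimer of Col4a1 and Col4a2 chains. Col4a1 (ENSMUSG00000031502, chr8:11198423-11312826, minus strand, build mm10) had 607, 910, 964 and 1212 units in KO lines 1 to 4, against 1247 and 669 units in the WT libraries. The groups overlapped fully, with a log2 fold change of -0.03, a 95% interval of -0.78 to 0.73 and an adjusted p of 0.962. Col4a2 (ENSMUSG00000031503, chr8:11312805-11449287, plus strand) had 399, 548, 446 and 678 units in the KO lines, against 1028 and 624 units in the WT libraries. KO line 4 alone lay above the lower WT library, and the log2 fold change of -0.64 (SE 0.264, 95% interval -1.27 to -0.02) did not pass (adjusted p = 0.129).

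The genes stand head to head. In RefSeq (build GRCm38.p6) the Col4a2 transcript starts at 11312805 on the plus strand and the Col4a1 transcript at 11312826 on the minus strand, so their first 22 bases overlap, and reads there could belong to either gene unless strand was used in counting, which the sources used here do not say. The Col4a2 promoter window (chr8:11312555-11312854, plus strand) is shown because a part of it is also within the Col4a1 window. Capitals mark these 78 shared bases.
Col4a2: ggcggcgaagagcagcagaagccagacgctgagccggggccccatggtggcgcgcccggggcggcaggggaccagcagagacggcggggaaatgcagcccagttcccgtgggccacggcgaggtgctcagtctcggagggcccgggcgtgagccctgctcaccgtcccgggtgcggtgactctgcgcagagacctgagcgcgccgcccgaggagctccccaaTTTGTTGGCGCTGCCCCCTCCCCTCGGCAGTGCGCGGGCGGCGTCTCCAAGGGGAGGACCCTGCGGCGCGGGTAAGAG
The whole Col4a2 window is 73.7% G and C and holds 3 matches to the GC box GGGCGG and 1 to CCAAT, searched on both strands. These figures do not describe the shared bases alone. The Col4a1 window held 1 GC box and 1 CCAAT. This GC box lies in the shared bases and is therefore also 1 of the 3 of Col4a2.

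The ratio of Col4a1 to Col4a2 did not overlap between the groups. The share of all gene pairs whose ratios do not overlap was not computed. The log2 ratio of Col4a1 to Col4a2 within a library was 0.59, 0.72, 1.09 and 0.82 in the KO lines, against 0.28 and 0.10 in the WT libraries. Every KO line lay above both WT libraries, by 0.62 in the means (KO 0.80 ± 0.21, SD, n = 4; WT 0.19 ± 0.12, SD, n = 2). The exact two-sided permutation p was 0.0667, the smallest that 4 against 2 libraries allow (0.0889 adjusted over 4 ratios), so no ratio here can pass 0.05. Since both genes are on chromosome 8, centring each chromosome cannot alter this ratio and does not test it. For the single chains, chromosome-centred values gave log2 fold changes of -0.23 for Col4a1 (adjusted p = 0.643) and -0.84 for Col4a2 (adjusted p = 0.0835).

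**Figure D2:**
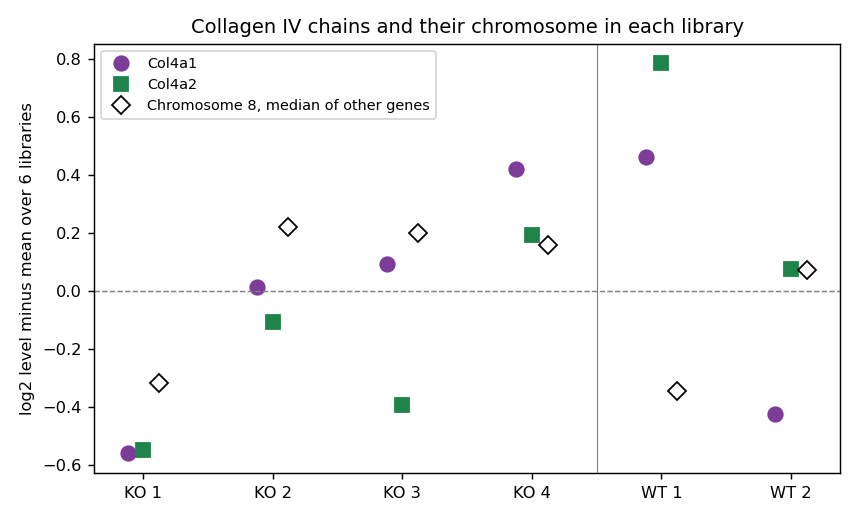
Log2 level minus the mean over the 6 libraries (vertical axis) for Col4a1, Col4a2 and the median of the other genes of chromosome 8, in each KO line and WT replicate. KO line 1 is low in all 3, while WT replicate 1 is high for both collagen chains although its chromosome 8 median is low (-0.34).

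The laminin chains differed among themselves. Lama1 is the alpha chain of the first laminin of the embryo, while Lama5 is the alpha chain of the laminin used widely as a culture substrate for pluripotent cells. Lama5 (ENSMUSG00000015647, chr2:180176373-180225859, minus strand) had 4513, 4395, 4294 and 3760 units in the KO lines, against 3385 and 2860 units in the WT libraries. The 4 KO lines lay above both WT libraries, with a mean of 4240 ± 333 (SD, n = 4) against 3122 ± 371 (SD, n = 2), a log2 fold change of 0.44 (SE 0.112, adjusted p = 0.0395). The call was lost when KO line 1, 2 or 3 was left out (adjusted p 0.0806, 0.116 and 0.107). Over the 6 fits with a library left out, log2 values were 0.32 to 0.56, lowest without WT replicate 2.

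Lama1 (ENSMUSG00000032796, chr17:67697259-67822647, plus strand) had 932, 814, 865 and 1111 units in the KO lines, against 1671 and 878 units in the WT libraries. The KO lines were close to WT replicate 2 and below WT replicate 1. Its log2 fold change of -0.39 did not pass (SE 0.253, adjusted p = 0.313). It became 0.07 without WT replicate 1 and -0.84 without WT replicate 2, so the choice of WT library decided the direction. Such a fit leaves 1 WT library, and its error comes from the KO lines alone. The log2 ratio of Lama5 to Lama1 was 2.26, 2.41, 2.29 and 1.75 in the KO lines, against 1.01 and 1.69 in the WT libraries. KO line 4 was just above WT replicate 2, and the groups did not overlap (difference 0.83, exact permutation p = 0.0667, the smallest possible; 0.49 without WT replicate 1).

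Lamb1 and Lamc1 are the beta and gamma chains that both alpha chains pair with. Lamb1 (ENSMUSG00000002900, chr12:31265234-31329644, plus strand) had 693, 360, 442 and 808 units in the KO lines, against 1023 and 568 units in the WT libraries. It varied more among the KO lines than any other member, with a ratio of 2.24 between the highest and the lowest line (median of all genes 1.27), and its log2 fold change of -0.47 (95% interval -1.34 to 0.40) did not pass (adjusted p = 0.398).

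Lamc1 (ENSMUSG00000026478, chr1:153218922-153332786, minus strand) had 10384, 11428, 10384 and 10384 units in the KO lines, against 10384 and 10065 units in the WT libraries. At this level the deposited values come in blocks of 10 genes, and Lamc1 stood in the same block (10372 to 10408 units) in 4 libraries. The next blocks lay 5.3% higher and 3.19% lower, so a smaller difference could not be seen. Its log2 fold change was 0.06, with the narrowest 95% interval of the 10 genes (-0.12 to 0.24). The log2 ratio of Lamb1 to Lamc1 was -3.88, -4.93, -4.51 and -3.66 in the KO lines, against -3.33 and -4.11 in the WT libraries, with the groups overlapping (exact permutation p = 0.333).

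Nidogens link laminin to collagen IV, and Nid1 and Nid2 are paralogs with overlapping roles. Nid2 (ENSMUSG00000021806, chr14:19751265-19811787, plus strand) had 10946, 9380, 8658 and 8870 units in the KO lines, against 6970 and 6574 units in the WT libraries. The groups did not overlap, and the KO mean was 9464 ± 1034 (SD, n = 4) against a WT mean of 6772 ± 280 (SD, n = 2), a log2 fold change of 0.48 (SE 0.11, adjusted p = 0.0304). The call was lost without KO line 2 or KO line 3 (adjusted p 0.0887 and 0.0615). The log2 value was 0.43 without WT replicate 2.

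Nid1 (ENSMUSG00000005397, chr13:13437551-13512269, plus strand) had 5770, 4994, 4456 and 3760 units in the KO lines, against 6174 and 4142 units in the WT libraries. All but the lowest KO line lay between the WT libraries, and the log2 fold change was -0.11 (95% interval -0.60 to 0.39, adjusted p = 0.738). Within a library the log2 ratio of Nid1 to Nid2 was -0.92, -0.91, -0.96 and -1.24 in the KO lines, against -0.18 and -0.66 in the WT libraries. Every KO line was below both WT libraries (difference -0.59, exact permutation p = 0.0667, the smallest possible; -0.34 without WT replicate 1).

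**Figure D3:**
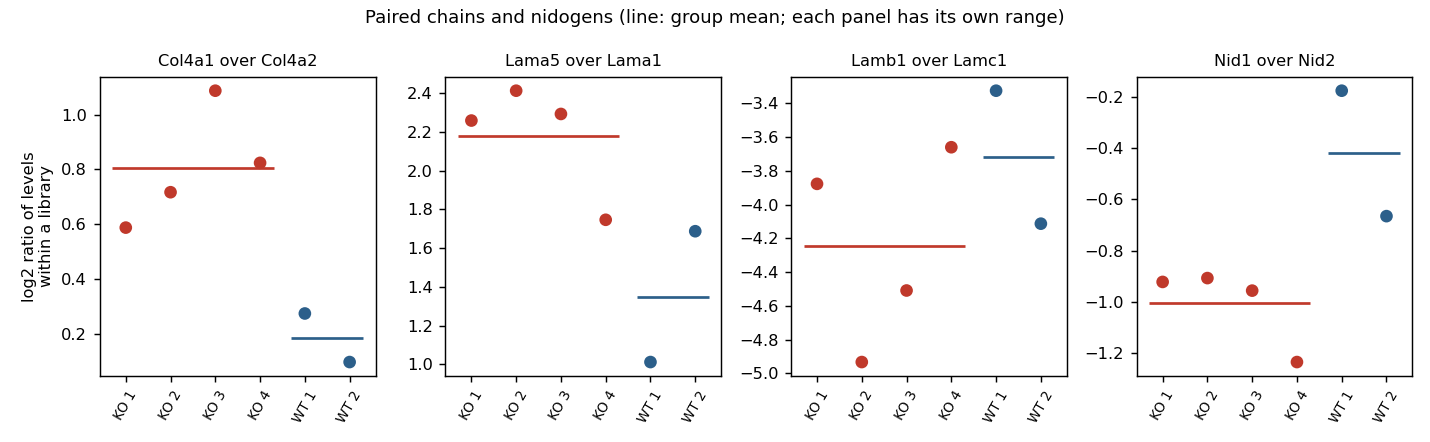
Log2 ratio of a pair of basement membrane genes within each library (vertical axis, own range per panel) in KO lines (red) and WT replicates (blue), with group means as lines. The groups do not overlap for Col4a1 over Col4a2, Lama5 over Lama1 or Nid1 over Nid2, and they overlap for Lamb1 over Lamc1.

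Perlecan, the heparan sulfate proteoglycan encoded by Hspg2, binds laminin, nidogen and dystroglycan. Hspg2 (ENSMUSG00000028763, chr4:137468769-137570630, plus strand) had 7512, 7108, 6694 and 6826 units in the KO lines, against 5854 and 3914 units in the WT libraries. The KO lines lay together above both WT libraries, and the log2 fold change of 0.55 (SE 0.156, 95% interval 0.18 to 0.92) missed the threshold (adjusted p = 0.0519). It passed with chromosome-centred values (log2 0.51, adjusted p = 0.0425). The log2 value was 0.84 without WT replicate 1 and 0.26 without WT replicate 2, fits that leave 1 WT library.

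The promoter windows of Lama5 (chr2:180225810-180226109, minus strand) and Hspg2 (chr4:137468553-137468852, plus strand), from RefSeq on GRCm38.p6, are shown because both genes lay higher in every KO line; capitals mark GC boxes (GGGCGG on either strand).
Lama5: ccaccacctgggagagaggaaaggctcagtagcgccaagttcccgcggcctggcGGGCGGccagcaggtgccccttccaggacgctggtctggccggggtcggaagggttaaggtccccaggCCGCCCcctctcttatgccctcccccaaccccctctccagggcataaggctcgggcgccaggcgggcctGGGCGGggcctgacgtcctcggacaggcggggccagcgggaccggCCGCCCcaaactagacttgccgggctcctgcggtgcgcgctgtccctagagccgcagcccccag
Hspg2: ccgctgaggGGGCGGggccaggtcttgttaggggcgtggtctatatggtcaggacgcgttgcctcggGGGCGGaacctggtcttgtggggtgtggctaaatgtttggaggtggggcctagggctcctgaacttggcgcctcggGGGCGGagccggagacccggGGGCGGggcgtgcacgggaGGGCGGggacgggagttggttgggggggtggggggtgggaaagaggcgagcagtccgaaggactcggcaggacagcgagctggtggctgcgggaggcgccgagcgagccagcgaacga
Lama5 held 4 GC boxes and Hspg2 held 5. Of the 7 members with a promoter entry all but Sparc held at least 1, where 35.7% of 32851 mouse promoter windows do. The only match of Col4a1 is shared with Col4a2 and so is counted for both. None of the 7 held TATAAA (13.6% of windows) or the AP-1 letters TGANTCA (7.81%), and CCAAT (37.4%) stood in those of Col4a1, Col4a2, Lamb1 and Nid1. A match of letters is a description and not a binding site.

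Sparc, a secreted glycoprotein that binds collagen and that fibroblasts and parietal endoderm make in quantity, was the 1 member that fell. Sparc (ENSMUSG00000018593, chr11:55394500-55423183, minus strand) had 4236, 3938, 3938 and 3571 units in the KO lines, against 8240 and 5562 units in the WT libraries. All KO lines lay below both WT libraries and within a narrow range, with a mean of 3921 ± 272 (SD, n = 4) against 6901 ± 1894 (SD, n = 2), a log2 fold change of -0.79 (SE 0.159, adjusted p = 0.0204). The value was -0.51 without WT replicate 1 and -1.07 without WT replicate 2, and the call was lost without KO line 2 or KO line 3 (adjusted p 0.0653 and 0.0635).

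**Figure D4:**
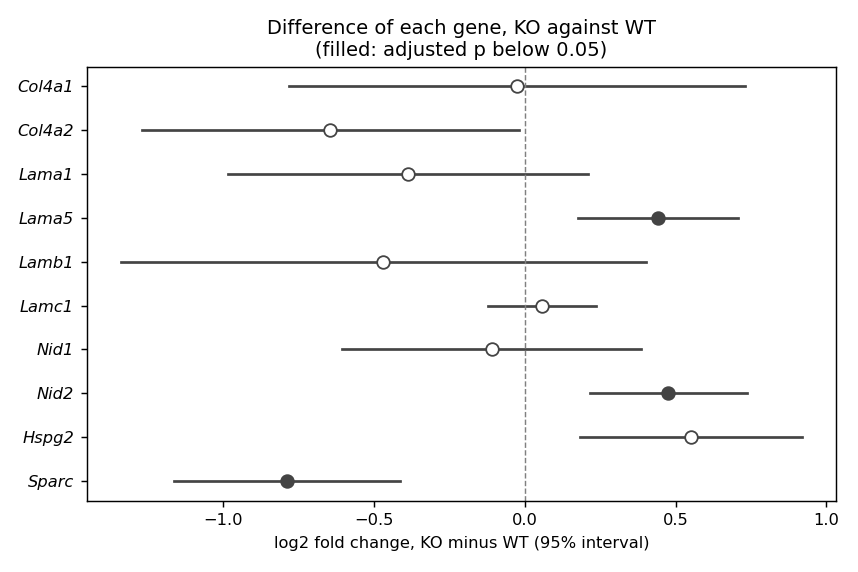
Log2 fold change of KO over WT (horizontal axis) with its 95% interval from the limma fit for each basement membrane gene; filled points have an adjusted p below 0.05. Lama5 (0.44) and Nid2 (0.48) lie to the right of 0 and Sparc (-0.79) to the left, and the interval of Hspg2 also lies above 0 although its adjusted p is 0.0519.

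Feeder fibroblast markers stood beside these values as follows. The summed level of the 24 measured fibroblast markers other than fibronectin (Fn1) was 11362, 7248, 9108 and 7376 units in the KO lines, against 67491 and 35495 units in the WT libraries. Of the 25 measured, 22 fell and none rose, beside 7.34% lower and 9.75% higher over all genes. Their median log2 fold change was -3.02, and WT replicate 1 exceeded WT replicate 2 in 24 of them. The interstitial collagens Col1a1, Col1a2, Col3a1 and Col5a1 had log2 fold changes of -3.06, -4.30, -2.51 and -2.63, and the intermediate filament gene Vim of -1.16, all called. Fn1, which stem cells also express, lay on the same step of 36452 units in 5 libraries and at 29855 units in WT replicate 2. WT replicate 1 also exceeded WT replicate 2 for all 10 basement membrane genes, by a median ratio of 1.49 (1.03 over all genes, of which 54.0% did so). The same held for 14 of the 17 pluripotent stem cell markers (median ratio 1.19 over the 17). The part of feeder cell RNA in the level of Sparc or of any other member was not tested.

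**Figure D5:**
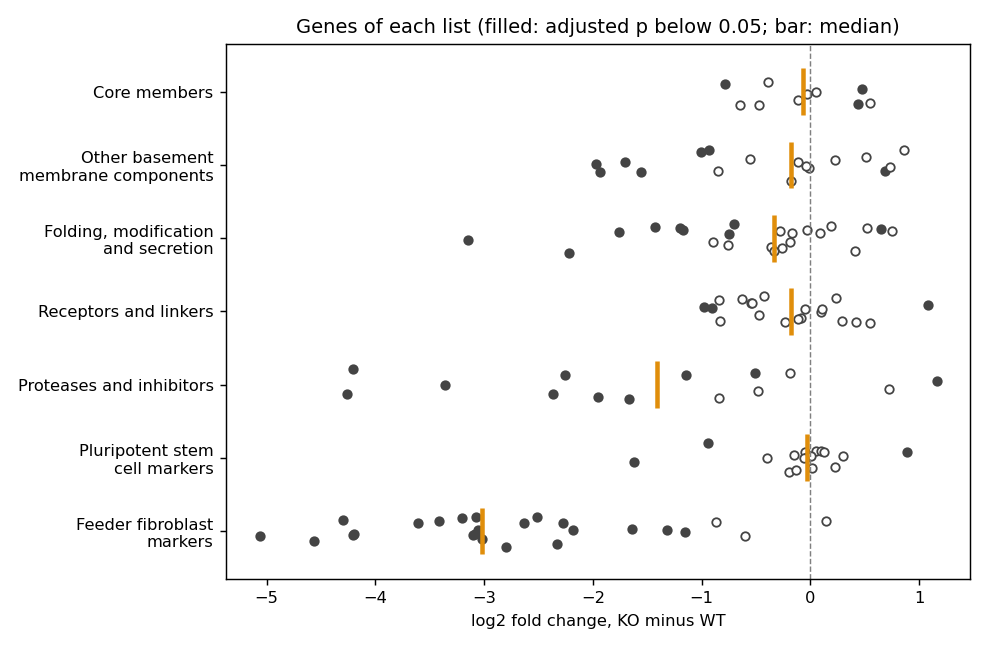
Log2 fold change of KO over WT (horizontal axis) for the measured genes of the lists, 1 point per gene. The parietal and primitive endoderm markers are not shown. Filled points have an adjusted p below 0.05 and bars are list medians. The 10 core members spread around 0 (median -0.07), as do the pluripotent markers, while the fibroblast markers (median -3.02) and the proteases and inhibitors (median -1.41) lie to the left.

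Of 29 other structural genes of the basement membrane, 17 were measured, 1 rose, 6 fell and 10 did not pass, with a median log2 fold change of -0.18; over all genes 9.75% were called higher and 7.34% lower. Agrin (Agrn), the second large heparan sulfate proteoglycan, had 6174, 5560, 5350 and 5126 units in the KO lines, against 3460 and 3408 units in the WT libraries. The groups were well apart, and the log2 fold change was 0.69, with SE 0.0954 and an adjusted p of 0.00767. The laminin chain Lama4, typical of mesenchyme and vessels, and the anchoring fibril collagen Col7a1 fell, with log2 fold changes of -1.93 and -1.97. So did netrin (Ntn1, -1.70) and the fibulin Efemp2 (-1.56). The fibulin Efemp1 had 209, 202, 224 and 214 units in the KO lines, against 509 and 380 units in the WT libraries (adjusted p = 0.00983). The sixth, the collagen IV chain Col4a5 (X chromosome; named after its values were seen), had 292, 236, 250 and 246 units in the KO lines, against 640 and 390 units in the WT libraries (log2 -0.93, adjusted p = 0.0267). The laminin chains Lama2 and Lamb2, also named after their values were seen, did not pass, with log2 values of -0.84 and -0.12. Without KO line 2 the lower genes of the list numbered 3. The fibroblast markers were lower in the same lines, and their part in these falls was not tested.

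Of 30 listed genes that serve the folding, modification, cross-linking and export of collagen, 23 were measured. Of these, 1 rose, 8 fell and 14 did not pass (median -0.33), beside 9.75% higher and 7.34% lower over all genes. The lysyl oxidases Loxl1, Loxl3 and Loxl2 fell, with log2 fold changes of -3.15, -1.76 and -1.43; Loxl2 is known to cross-link collagen IV. The collagen chaperone Serpinh1 had 578, 568, 578 and 782 units in the KO lines, against 1649 and 1270 units in the WT libraries, and fell to 0.429 times the WT mean (adjusted p = 0.00853). The prolyl isomerase Fkbp10 fell by 2.22 on the log2 scale. The remaining 3, named after their values were seen, were Sec24d, Crtap and Mia3 (log2 -1.17, -0.75 and -0.71); Sec24d and Mia3 act in the loading of large cargo into transport vesicles and Crtap in proline hydroxylation. The lysyl hydroxylase Plod2 rose by 0.65, with 1734, 2328, 2136 and 2304 units in the KO lines against 1405 and 1272 units in the WT libraries. The list held 5 lower genes without KO line 3, and 0 higher genes without KO line 2, 3 or 4. Such genes also serve the interstitial collagens of fibroblasts, whose markers were lower in the same lines. The part of fibroblasts in these falls was not tested.

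Among receptors and linkers, 20 of 24 listed genes were measured, 1 rose, 2 fell and 17 did not pass, a share of called genes close to the 17.1% of all genes. The syndecan Sdc4, a cell surface proteoglycan, had 3040, 2726, 2930 and 2476 units in the KO lines, against 1605 and 1064 units in the WT libraries, and rose by 1.08 (adjusted p = 0.0112). The adhesion linkers vinculin (Vcl) and parvin (Parva) fell, with log2 fold changes of -0.97 and -0.90. The count of lower genes in this list was unstable: 0 without KO line 2 or KO line 3, 1 without KO line 1 or 4, and 5 with chromosome-centred values. Dystroglycan (Dag1) and the integrin Itgb1 were chosen after their values were seen. Dag1, a receptor of laminins, perlecan and agrin, had 4842, 4842, 4558 and 5932 units in the KO lines against 3983 and 3517 units in the WT libraries (log2 0.42, adjusted p = 0.0578). The integrin Itgb1, on chromosome 8, had 2458, 5335, 4505 and 4672 units in the KO lines against 6438 and 8238 units in the WT libraries (log2 -0.83, adjusted p = 0.0954). Neither passed, although their groups did not overlap.

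Of 20 listed proteases and their inhibitors, 14 were measured, 1 rose, 9 fell and 4 did not pass (median -1.41), beside 9.75% higher and 7.34% lower over all genes. The metalloproteinase inhibitors Timp2 and Timp3 fell, with log2 fold changes of -4.26 and -4.20, as did the procollagen protease Bmp1 (-3.36), the plasminogen activator Plat (-2.36) and the membrane metalloproteinase Mmp14 (-2.25). Timp3 is also on the fibroblast list, and the fibroblast markers were lower in the same lines; their part in these falls was not tested. The metalloproteinase Adamts9 was the 1 higher gene, and had 742, 571, 417 and 557 units in the KO lines, against 308 and 190 units in the WT libraries (log2 1.16, adjusted p = 0.0278). Leaving out KO line 2 left 4 lower genes and leaving out KO line 3 left 5, and no gene was called higher without KO line 1, 2 or 4.

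By likeness of log2 level over the 6 libraries, the genes nearest to Col4a1 were Adamts6, Sppl2a, Zfand2b, Tmem175 and Rnf6 (Pearson r 0.97 to 1.00), and those nearest to Lama1 were Blvrb, Celf2, Mxd1, Swi5 and Nr1h2 (0.98 to 1.00). They were picked as the closest of all genes on 6 points, so such values are a description only. Each of the 5 nearest to Lama1 was highest in WT replicate 1, and so were the 5 nearest to Col4a1. Lama1 and Col4a1 were themselves highest there, so this follows largely from how the genes were picked.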

How the data were processed

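RNA of 4 Ddx5 KO lines and 2 WT replicates was sequenced, and the deposited table holds a normalized score per gene and library. Build mm10, Bowtie2 2.2.0 and RSEM 1.2.17 appear in the submitters' processing notes without roles; how values were normalized is not given there. The authors named the deposited score CPM, but the values are whole numbers with near-equal totals and shared top values (78894 units for 10 genes in each library). Among the 500 highest genes they come in blocks of 10, so small differences there cannot be seen; the gap to the next block was wider than the block at 49 of 49 places in 5 libraries and at 32 of 49 in WT replicate 2. Depth is unknown. Positions are from GENCODE M21 by gene identifier.

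Values were divided by 14.7 units (mean total over 1000000), 1 was added and log2 taken, which understates changes of low genes. A scaled value of at least 1 in 2 libraries was required, which removed no gene. The KO lines were set against the WT replicates with limma 3.58.1 (R 4.3.3; lmFit, eBayes with trend, two-sided, no covariate), with Benjamini-Hochberg adjustment over all genes; where WT varied more than KO, the pooled variance can make p-values too small. Intervals are 95%. Ratios were tested by exact permutation. The fit was tested on simulated data. Members and lists were chosen with earlier results of these data known. Named genes are the 10 members, Ddx5, at most 5 called genes a direction with the largest change in each other list, the leading markers, and the 5 genes most like Col4a1 and Lama1; others are said to be chosen after their values were seen. Alternatives were other pseudocounts (0.1 and 5), filters, quantile normalization, trimmed-mean scaling, no trend, chromosome-centred values (each chromosome's median deviation in a library subtracted), a replicate block and leaving out each library. Leaving out a WT replicate leaves 1, so the error then comes from the KO lines alone. For such fits only log2 values are given.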

Additional observations from a re-analysis of the deposited data

Results flagged for a closer look

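In the 4 KO lines, 2 of 14 values examined had 1 line far from the others by Dixon's criterion, which chance gives in about 1 in 20 groups. Lamc1 lay at 11428 units in KO line 2 and at 10384 units in the other 3 lines. With 3 lines tied on the same value, the criterion is met at any distance of the remaining line. For Lamc1 the flag therefore follows from the steps of the deposited values, and the rate of 1 in 20 does not apply. The log2 ratio of Nid1 to Nid2 was -1.235 in KO line 4 and -0.96 to -0.91 in the others. The cause of neither was tested.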

How the results depend on the processing

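The count of 1 lower and 2 higher members depended on the libraries. With each KO line left out in turn, 0 to 1 members were lower and 0 to 2 higher. Fits without a WT replicate hold a single WT library, so their counts are not given. Without a mean-variance trend 0 members were higher. With the replicate block 0 were lower and 0 higher, and 20 of all genes were called (18 lower, 2 higher). The numbers of KO lines and WT replicates are shared by name only, and only 2 pairs exist. Deviations from the group means correlated at 0.145 for the pair numbered 1 and 0.097 for the pair numbered 2. The unmatched KO line 3 reached 0.0959 with WT replicate 2. With 2 WT libraries each value recurs with its sign changed for the other WT replicate, so these values cannot show a pairing. Under the other alternatives run that kept every library, these member counts stayed within 1.5 times. Directions reversed for members that had not passed. With a library left out Col4a1 lay between -0.469 and 0.415 (0.157 without KO line 1), Lama1 between -0.844 and 0.073, and Nid1 between -0.396 and 0.178, each positive without WT replicate 1. Nid1 was 0.086 with the replicate block. Calls over all genes, 1878 with every library, dropped to 1223, 472 and 572 when KO line 1, 2 or 3 was omitted. The cause was not tested. Pseudocounts, filters and scalings left the calls of Lama5, Nid2 and Sparc in place. Unknown depth means that no counting error can be given.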
